A study of Mus musculus with 16 samples.

Results

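The 10 genes described here are melanocyte genes taken by name from a table of 24421 mouse genes: the transcription factor genes Mitf and Sox10, the receptor genes Kit, Ednrb and Mc1r, and the pigment genes Tyr, Tyrp1, Dct, Pmel and Mlana. All 10 were in the table. The samples were skin of female SKH-1 mice, a hairless albino strain used in work on skin cancer caused by ultraviolet B light (UVB). Exposed mice had received 60 mJ/cm2 of UVB in 2 sessions per week, and control mice had received no agent. The groups were UVB and control epidermis at weeks 2, 15 and 25, skin tumors of UVB mice at week 25, and whole skin of control mice at week 25, with 2 RNA-seq libraries in each of the 8 groups. The labels give neither the age of the mice nor the pigment genotype. Replicates carry the numbers 0 and 1, and nothing states that they are different animals. A p-value here therefore reflects only how far these particular samples scatter, and that scatter may be technical.

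Melanocytes make pigment in melanosomes, and MITF is the transcription factor that switches on many of their genes, among them Tyr, Tyrp1, Dct, Pmel and Mlana. SOX10 acts above MITF in the lineage, and the receptors KIT, EDNRB and MC1R carry signals from neighbouring cells that maintain melanocytes or drive pigment synthesis. Albino mice keep melanocytes that lack working tyrosinase, so RNA of the other pigment genes can still be made. In hairy mouse skin most melanocytes sit in the hair follicle. Mitf and Kit are not restricted to melanocytes: mast cells use both, and Mitf has several alternative starts, of which 1 is the melanocyte start. The question put to the data was whether Mitf RNA followed the pigment genes across the 8 groups.

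MITF binds the letters CATGTG, and the form TCATGTG is known from promoters of pigment enzyme genes. The 250 bases before the start of Tyr, Tyrp1 and Dct are printed because they hold these letters, and those before the start of the melanocyte form of Mitf are printed for comparison. The sequences are RefSeq reference sequence of build GRCm38.p6 and not that of SKH-1. Each runs 5′ to 3′ on the strand of the gene, and capitals mark CATGTG on either strand (CACATG where it lies on the other strand).
Tyr, chr7:87493513-87493762, minus strand: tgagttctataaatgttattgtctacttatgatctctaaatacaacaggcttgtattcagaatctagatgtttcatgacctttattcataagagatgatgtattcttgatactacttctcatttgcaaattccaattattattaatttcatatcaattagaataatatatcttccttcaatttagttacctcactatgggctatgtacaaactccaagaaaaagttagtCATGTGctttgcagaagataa
Tyrp1, chr4:80833963-80834212, plus strand: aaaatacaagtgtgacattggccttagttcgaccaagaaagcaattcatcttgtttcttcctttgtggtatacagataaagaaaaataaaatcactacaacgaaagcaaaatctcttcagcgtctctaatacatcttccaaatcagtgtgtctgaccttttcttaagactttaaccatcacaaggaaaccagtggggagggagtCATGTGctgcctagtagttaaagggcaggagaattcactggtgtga
Dct, chr14:118052247-118052496, minus strand: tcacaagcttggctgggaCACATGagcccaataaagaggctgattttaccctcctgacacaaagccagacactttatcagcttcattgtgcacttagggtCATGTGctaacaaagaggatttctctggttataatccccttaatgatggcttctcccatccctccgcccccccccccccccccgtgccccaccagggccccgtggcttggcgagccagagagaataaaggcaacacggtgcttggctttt
Mitf, melanocyte start, chr6:97991533-97991782, plus strand: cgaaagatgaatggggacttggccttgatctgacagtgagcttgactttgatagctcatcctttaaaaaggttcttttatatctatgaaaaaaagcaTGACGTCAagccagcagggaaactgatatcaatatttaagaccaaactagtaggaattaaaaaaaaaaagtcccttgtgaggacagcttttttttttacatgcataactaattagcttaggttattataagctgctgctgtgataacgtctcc
In the Mitf window the capitals mark instead the letters TGACGTC, which lie there on both strands in overlap. That search was added after the values had been seen. Promoter windows were found for 7 of the 10 genes (not for Sox10, Pmel and Mlana). TCATGTG was present in the windows of Tyr, Tyrp1, Dct and Mc1r, with 2 copies in that of Dct. Neither CATGTG nor TCATGTG was in the windows of Kit and Ednrb or before any of the 3 listed starts of Mitf. Among 32851 windows of the same length over all genes, 12.3% held CATGTG, 3.25% held TCATGTG and 2.78% held TGACGTC. A match is a string of letters, not a shown binding site. The gene counts do not separate the starts of Mitf.

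Deposited counts summed to 2905165 to 7959503 per library, so 3 counts in a library corresponded to 0.309 to 1.27 CPM (counts relative to library sizes scaled by TMM). The shallowest library was week 2 control 1 of epidermis. In each of the 8 groups the replicates differed beyond counting noise (chi-square per degree of freedom between 4.62 and 46.2). Mitf (chr6:97807058-98021358, mm10, plus strand) was the best measured of the 10 genes in epidermis, with 1599 counts over the 12 libraries. Dct (chr14:118012790-118052246, minus strand) had 241 counts, Pmel (chr10:128706258-128720238, plus strand) 311, Tyrp1 (chr4:80834213-80851736, plus strand) 90, Kit (chr5:75574987-75656721, plus strand) 90 and Mlana (chr19:29697941-29708306, plus strand) 65. These 6 genes passed the filter on low counts in epidermis. The other 4 did not: Ednrb (chr14:103814615-103844476, minus strand) had 37 counts there, Tyr (chr7:87427405-87493411, minus strand) 26, Mc1r (chr8:123407082-123410744, plus strand) 16 and Sox10 (chr15:79154913-79164490, minus strand) 14. Of the 2130 exon bases of Pmel, 103 (4.84%) overlap the gene Dgka on the other strand, and the strand setting of the counting is not given in the sources used here.

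**Figure D1:**
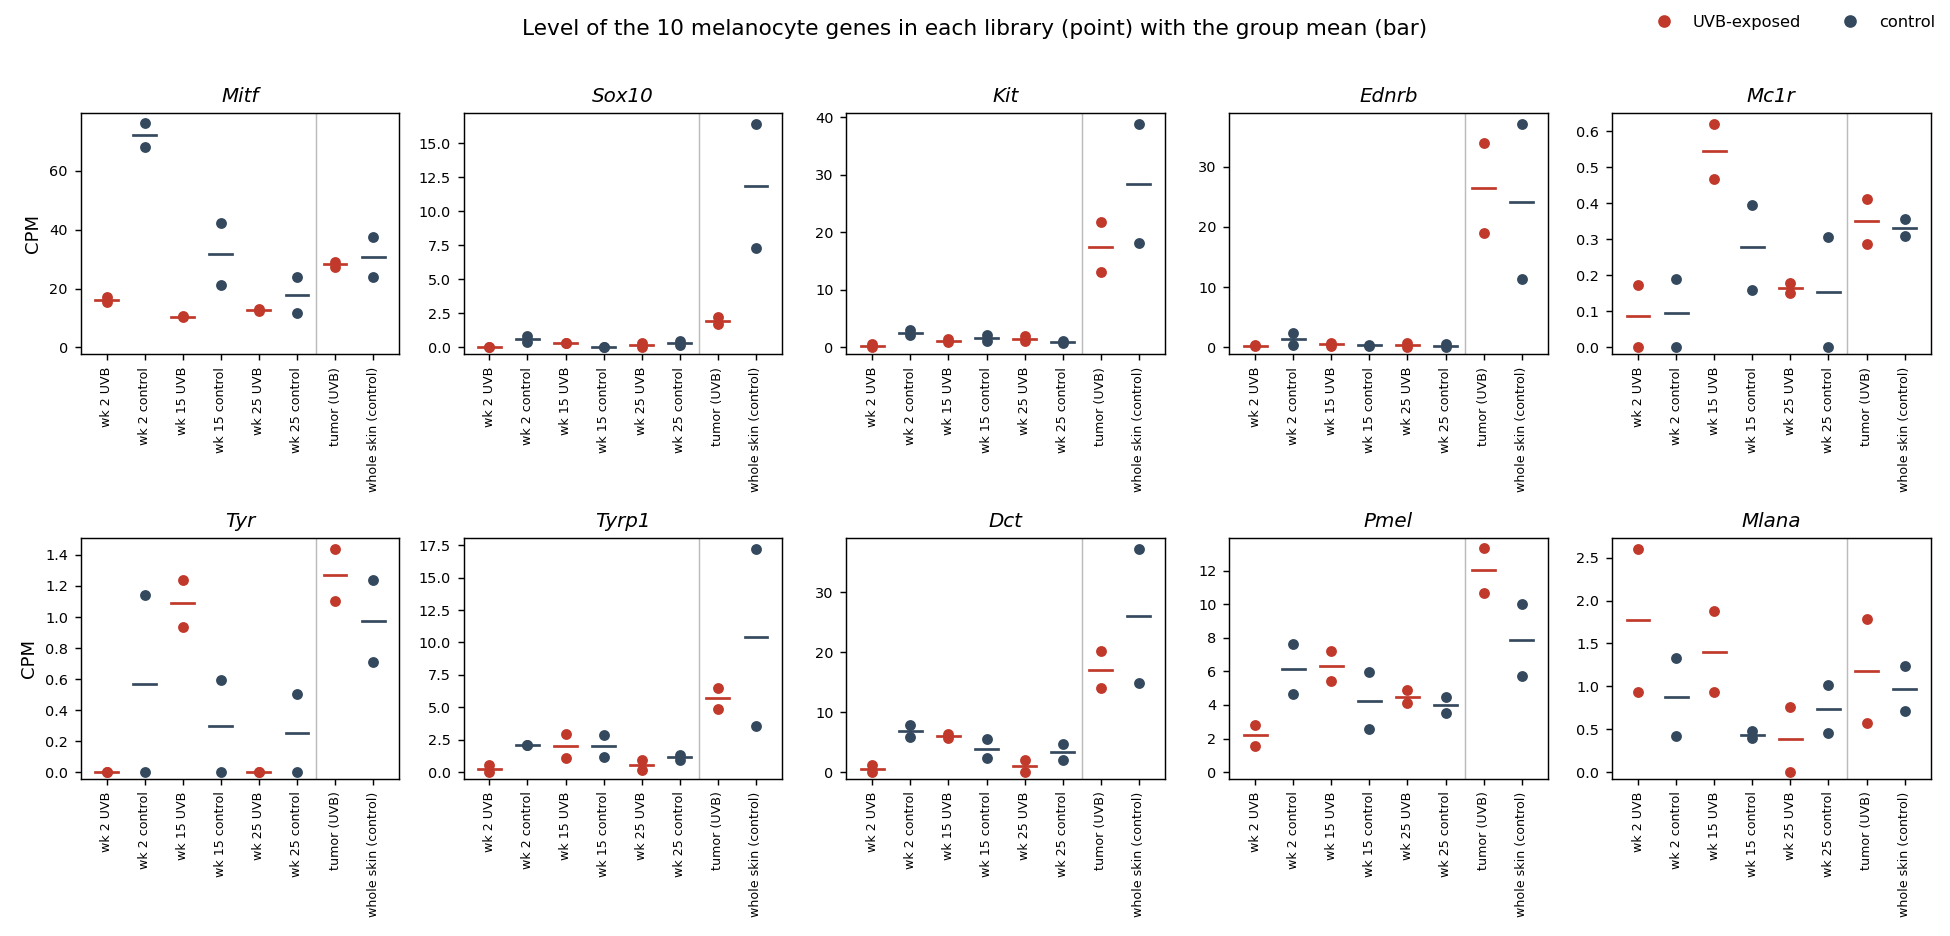
CPM of each of the 10 genes (vertical axis, a scale of its own in each panel) in each library (points; red UVB, dark control), with the group mean as a bar, for the 6 epidermis groups and, right of the grey line, the week 25 tumors and whole skin. Mitf was highest in week 2 control epidermis (68.1 and 76.4 CPM). By group mean Kit, Ednrb, Sox10, Tyrp1, Dct and Pmel were highest in tumor and whole skin, and Tyr in tumor. Mc1r was highest in week 15 UVB epidermis and Mlana in week 2 UVB epidermis.

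Mitf fell in UVB epidermis. Over the 3 weeks it averaged 13.2 ± 2.67 CPM in UVB epidermis and 40.7 ± 26.5 CPM in control epidermis (SD, n = 6 each), a log2 fold change of -1.45 ± 0.28 (SE; adjusted p = 0.00291, quasi-likelihood test of edgeR, Benjamini-Hochberg over 13478 genes). It was the only gene of the 6 tested that passed as the mean over weeks, in a comparison that called 29.5% of all genes and 15.1% as lower. Fewer melanocytes, less RNA per melanocyte and a change in other cells that make Mitf cannot be told apart in these bulk samples. Mitf stayed past the threshold in each of the 18 alternative settings, including the loss of any 1 library.

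At week 2, Mitf had 17.1 and 15.4 CPM in UVB epidermis, against 76.4 and 68.1 CPM in control epidermis. The groups did not overlap, and the difference was -2.18 ± 0.36 on the log2 scale (adjusted p = 0.00567). Of 19 alternatives 1 took the call away, the loss of week 2 UVB 1 (log2 fold change then -2.10, adjusted p = 0.0648). At week 15 it had 10.5 CPM in both UVB libraries, against 42.2 and 21.4 CPM in the control libraries. Both UVB libraries were again below both controls (-1.61 ± 0.37, adjusted p = 0.0423). This call did not hold in 9 of 19 alternatives: the difference was -1.01 (adjusted p = 0.322) without week 15 control 0, while it was -1.60 (adjusted p = 0.181) without week 15 UVB 0 and -1.61 (adjusted p = 0.260) without week 15 UVB 1. In the other 6 it lay between -1.59 and -1.60, with adjusted p of 0.0501 to 0.0683. At week 25 Mitf had 13.1 and 12.3 CPM in UVB epidermis, against 23.9 and 11.9 CPM in control epidermis. There the groups overlapped and Mitf did not pass (-0.52 ± 0.36, adjusted p = 0.327; 0.07 without week 25 control 0). The UVB effect at week 25 minus that at week 2 was 1.67 ± 0.51 for Mitf, with an adjusted p of 0.0675, and a joint test of differences between the 3 weeks gave an adjusted p of 0.177 (1.6% of all genes called).

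Control epidermis itself differed between weeks. In control epidermis Mitf averaged 17.9 CPM at week 25 and 72.3 CPM at week 2, and it fell by 2.02 ± 0.36 on the log2 scale (adjusted p = 0.0103), in a comparison that called 13.7% of all genes and 5.24% as lower. It was the only melanocyte gene of the 6 tested that passed there. Without week 25 control 1 the value was -1.58 (adjusted p = 0.0725). The other tested genes were also lower, with a median over the 6 of -0.96, against -0.01 over all genes tested. On summed counts the ratio of week 25 to week 2 was 0.351 for Kit (counting interval 0.157 to 0.746). Dct had a ratio of 0.469 (0.306 to 0.713) and Pmel 0.602 (0.399 to 0.907). For Tyrp1 (0.537) and Mlana (0.690) the counting interval included 1. In UVB epidermis Mitf averaged 12.7 CPM at week 25 and 16.3 CPM at week 2 (-0.35 ± 0.37, adjusted p = 0.626). No melanocyte gene passed in that comparison by edgeR or by DESeq2, with 1 at an unadjusted p under 0.05 (Kit) and 4.52% of all genes called. On summed counts Kit (ratio 5.77, counting interval 1.70 to 30.5) and Pmel (2.09, 1.27 to 3.53) were higher at week 25. Mlana was lower (0.228, 0.0668 to 0.626), and for Tyrp1 and Dct the interval included 1.

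Ordered by group mean, Mitf stood at 72.3 CPM in week 2 control epidermis, 31.8 in week 15 control epidermis, 30.9 in whole skin, 28.3 in tumor, 17.9 in week 25 control epidermis, 16.3 in week 2 UVB epidermis, 12.7 in week 25 UVB epidermis and 10.5 in week 15 UVB epidermis. The first of these groups lay above the second without overlap. Week 15 control epidermis, whole skin and tumor overlapped one another, and so did week 25 control epidermis with the UVB groups of weeks 2 and 25. Week 25 control epidermis (23.9 and 11.9 CPM) also overlapped week 15 control epidermis (42.2 and 21.4 CPM). The 2 week 15 UVB libraries lay below all others.

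Dct encodes dopachrome tautomerase, an enzyme of eumelanin synthesis. At week 2 it had 0 and 1.21 CPM in UVB epidermis, against 7.79 and 5.92 CPM in control epidermis. It fell by 3.46 ± 1.08 on the log2 scale (adjusted p = 0.0490), on 7 against 55 counts, and passed in 5 of 19 alternatives. Without week 2 UVB 0 the difference was -2.52 (adjusted p = 0.189), the highest adjusted p among them. Together with Mitf and Kit it made 3 of 6 tested genes called at week 2, all lower, where 17.8% of all genes were called and 9.74% as lower. At week 15 the order was the other way round: Dct had 6.41 and 5.74 CPM in UVB epidermis, against 2.37 and 5.47 CPM in control epidermis. Both UVB libraries were above both controls by a narrow margin, but the difference did not pass (0.60 ± 0.84, adjusted p = 0.745). At week 25 it had 1.98 and 0 CPM in UVB epidermis, against 2.02 and 4.62 CPM in control epidermis. Both UVB libraries were lower, again by a narrow margin, and the difference did not pass (-1.69 ± 1.0, adjusted p = 0.244).

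Pmel encodes the protein that forms the fibrils of melanosomes. It had 2.82 and 1.56 CPM in UVB epidermis at week 2, against 7.60 and 4.65 CPM in control epidermis. The groups did not overlap, and Pmel just missed the threshold (-1.55 ± 0.51, adjusted p = 0.0568). It passed without week 15 control 0 (adjusted p = 0.0408), without week 15 control 1 (adjusted p = 0.0376) and with no filter on low counts (adjusted p = 0.0488). At week 15 it had 7.19 and 5.43 CPM in UVB epidermis, against 2.56 and 5.95 CPM in control epidermis, and at week 25 it had 4.88 and 4.11 CPM in UVB epidermis, against 3.54 and 4.46 CPM in control epidermis. The groups overlapped at both later weeks, with differences of 0.53 ± 0.46 and 0.14 ± 0.47. As the mean over weeks Pmel differed by -0.22 ± 0.37 (adjusted p = 0.680), with 160 counts in UVB and 151 in control epidermis.

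Tyrp1 encodes a tyrosinase-related melanosome protein. It had 0.564 and 0 CPM in UVB epidermis at week 2, against 2.09 and 2.12 CPM in control epidermis. The groups did not overlap and the test did not pass (-2.87 ± 1.08, adjusted p = 0.0865); on 3 against 16 counts the ratio per scaled library size was 0.129, with an exact 95% counting interval of 0.0241 to 0.451. Over weeks 15 and 25 it ranged from 0.178 to 2.97 CPM in UVB epidermis and from 0.924 to 2.90 CPM in control epidermis, and its differences of -0.05 ± 0.75 and -0.99 ± 0.95 did not pass. Mlana, which encodes a small melanosome protein, ranged from 0 to 2.60 CPM in UVB epidermis and from 0.395 to 1.33 CPM in control epidermis. It was the only tested member whose fitted difference was above 0 as the mean over weeks (0.60 ± 0.61, adjusted p = 0.486). Its 43 counts in UVB and 22 in control epidermis gave a ratio of 1.70 with a counting interval of 0.993 to 2.98.

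Tyr encodes tyrosinase, the first enzyme of melanin synthesis. It was at 0 in 4 of 6 UVB epidermis libraries and in 3 of 6 control epidermis libraries. The 2 UVB libraries with counts were both of week 15, at 0.937 and 1.24 CPM, against 0.592 and 0 CPM in the week 15 controls. The 14 counts in UVB against 3 in control epidermis at week 15 gave a ratio of 4.10 with a counting interval of 1.14 to 22.2. At week 2 it had 0 counts in UVB and 6 in control epidermis, all 6 in control 0, at least 2.91-fold lower against a floor of 3 counts over the group (upper bound of the ratio 0.584). Over the 3 weeks, where these opposite weeks are summed, 14 counts in UVB and 12 in control epidermis gave a ratio of 1.01 with an interval of 0.435 to 2.40. These intervals cover counting error and not the spread between replicates.

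Kit encodes the receptor for stem cell factor, which melanocytes and mast cells need. It had 0 and 0.521 CPM in UVB epidermis at week 2, against 3.04 and 2.12 CPM in control epidermis. It fell by 3.23 ± 0.87 on the log2 scale (adjusted p = 0.0301), on 3 against 21 counts, a ratio of 0.0983 with a counting interval of 0.0188 to 0.329. The call was lost without any 1 of these 4 libraries. At weeks 15 and 25 the groups overlapped, between 0.937 and 1.98 CPM in UVB epidermis and between 0.770 and 2.25 CPM in control epidermis. Ednrb, the endothelin receptor of the lineage, had at most 0.775 CPM in UVB epidermis and 2.47 CPM in control epidermis. Mc1r, the receptor for melanocortin, had at most 0.620 CPM in UVB and 0.395 CPM in control epidermis, and Sox10 at most 0.312 CPM in UVB and 0.846 CPM in control epidermis. These 3 genes had at most a few counts in nearly every epidermis library. Ednrb had 3 counts in UVB and 14 in control epidermis at week 2, 13 of them in control 0, a ratio of 0.147 with a counting interval of 0.0272 to 0.528. In controls it had 4 counts at week 25 and 14 at week 2 (ratio 0.175, interval 0.0420 to 0.558). For Mc1r and Sox10 the intervals of the UVB ratios included 1 at each week. No melanocyte gene passed at week 25 by edgeR or DESeq2, none had an unadjusted p under 0.05, and 21.5% of all genes were called. Mitf was the only one of the 6 called at week 15, where 3.49% of all genes were called and 1.64% as lower.

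**Figure D2:**
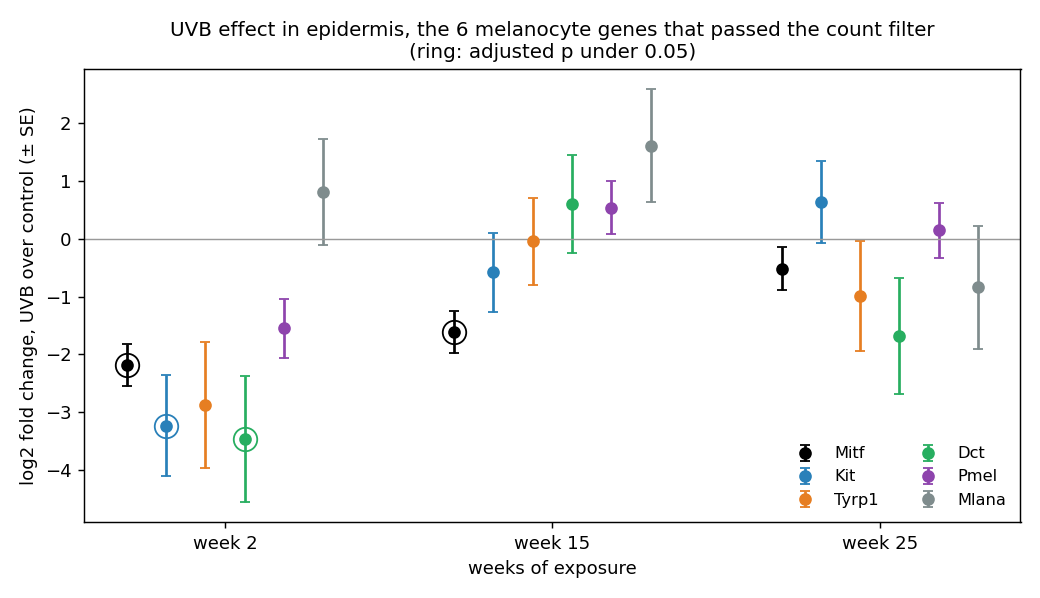
Fitted log2 fold change of UVB over control epidermis (vertical axis, with SE) at weeks 2, 15 and 25 for the 6 genes that passed the count filter; rings mark an adjusted p under 0.05. Mitf was below 0 at each week, from -2.18 at week 2 to -0.52 at week 25, while Dct and Pmel were below 0 at week 2 and above 0 at week 15.

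Whether Mitf moved apart from the pigment genes was tested on log2 CPM of Mitf minus log2 CPM of each of the 4 pigment genes tested in epidermis, with labels permuted within weeks (exact test, two-sided, smallest attainable p 0.00926). Relative to Pmel, Mitf stood at 1.63 ± 0.95 in UVB and 2.78 ± 1.05 in control epidermis (log2 difference, SD, n = 6 each), a difference of -1.14 (exact permutation p = 0.0278, adjusted over the 4 ratios 0.0741). Relative to Mlana the difference was -1.71 (exact permutation p = 0.0370, adjusted 0.0741). Relative to Tyrp1 it was -0.34 (exact permutation p = 0.593, adjusted 0.790) and relative to Dct 0.16 (exact permutation p = 0.833, adjusted 0.833). None of the 4 ratios passed after adjustment, and a Mitf change apart from that of Tyrp1 or Dct was not shown. Mlana had 0 to 15 counts a library, where the prior count of 2 added before the log draws its values together. Its ratio therefore reflects mostly Mitf.

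Across the 12 epidermis libraries the tested pigment genes did not rank near the top of all genes tested in likeness to Mitf. Pearson's r of log2 CPM with Mitf, given as a description over libraries that share the UVB and week differences, was 0.46 for Kit (rank 3304 of 13477 genes), 0.38 for Tyrp1, 0.31 for Dct, 0.08 for Pmel and -0.06 for Mlana (rank 6544). Their low counts, 65 to 311 for a pigment gene over these libraries, also limit how high r can be. Among genes that averaged 5 CPM or more, the 8 most similar were Pgm1 (r of 0.96), Chac1, Padi1, Pla2g2e, Bambi, Galc, Camk2n1 and Golga7b (r of 0.93). No pigment gene could enter this list, since Pmel averaged 4.56 CPM, Dct 3.63, Tyrp1 1.36 and Mlana 0.935. Padi1, which encodes a peptidylarginine deiminase, averaged 15.2 CPM in UVB and 67.6 CPM in control epidermis, and Bambi, a pseudoreceptor of the TGF-beta family, averaged 1.98 CPM in UVB and 24.5 CPM in control epidermis. The 5 genes most like Pmel, which had the highest level per kilobase of exon among the pigment genes over all epidermis, were Hoxb8 (r of 0.88), Vars2, Rxrb, Gpr137 and Tle2 (r of 0.83). None of them was among the 8 most like Mitf, but lists this short say little about whether Pmel and Mitf are alike.

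Within groups, where neither week nor UVB differs, the replicate that was higher in Mitf was also the higher in Dct in 2 of 6 epidermis groups, in Pmel in 3 of 6, and in the sum of Tyr, Tyrp1, Dct, Pmel and Mlana in 2 of 6. For the sum of 18 hair follicle genes (hair keratins, Tchh, Msx2, Foxn1 and others) the order was that of Mitf in all 6 epidermis groups, and so it was for the sum of 6 macrophage genes and for Ednrb, on 0 to 13 counts a library. For Kit it was that of Mitf in 4 of 6 groups, and for Tyr in 4 of 6, with both replicates at 0 in the other 2. Over all 8 groups, tumor and whole skin included, the order was that of Mitf in 4 for Dct, 5 for Pmel and 4 for the pigment gene sum. For the hair gene sum, the macrophage gene sum and Ednrb it was so in 7 of 8. Some of these orders were near ties. In week 15 UVB epidermis Mitf itself had 67 and 68 counts. In week 15 control epidermis Ednrb had 2 counts in each replicate, so only the library scaling set its order. The macrophage gene sum stood there at 55.3 and 55.8 CPM. How many of all genes keep the order of Mitf was not counted. This hair gene sum was 150 to 681 CPM in UVB epidermis, against 1416 to 4899 CPM in control epidermis, with no overlap and with 0 to 2 of its 18 genes at 0 in a library. In the controls it stood at 4899 and 4613 CPM at week 2, at 3541 and 2126 CPM at week 15 and at 2611 and 1416 CPM at week 25. Of the 18 genes, 15 fell under UVB at week 2 (9.74% of all genes were lower), 5 at week 15 (1.64%) and 10 at week 25 (10.9%). As the mean over weeks 16 fell, where 15.1% of all genes were lower, and none rose (median -3.11, against -0.02 over all genes tested). Tchh, the most abundant, averaged 118 CPM in UVB and 857 CPM in control epidermis (-2.82 ± 0.40, adjusted p = 0.000534). In tumor and whole skin the sum was low, 177 and 272 CPM in tumor and 142 and 399 CPM in whole skin, while Mitf there was 24.0 to 37.7 CPM. The part of hair follicle content in the Mitf difference was not tested.

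**Figure D3:**
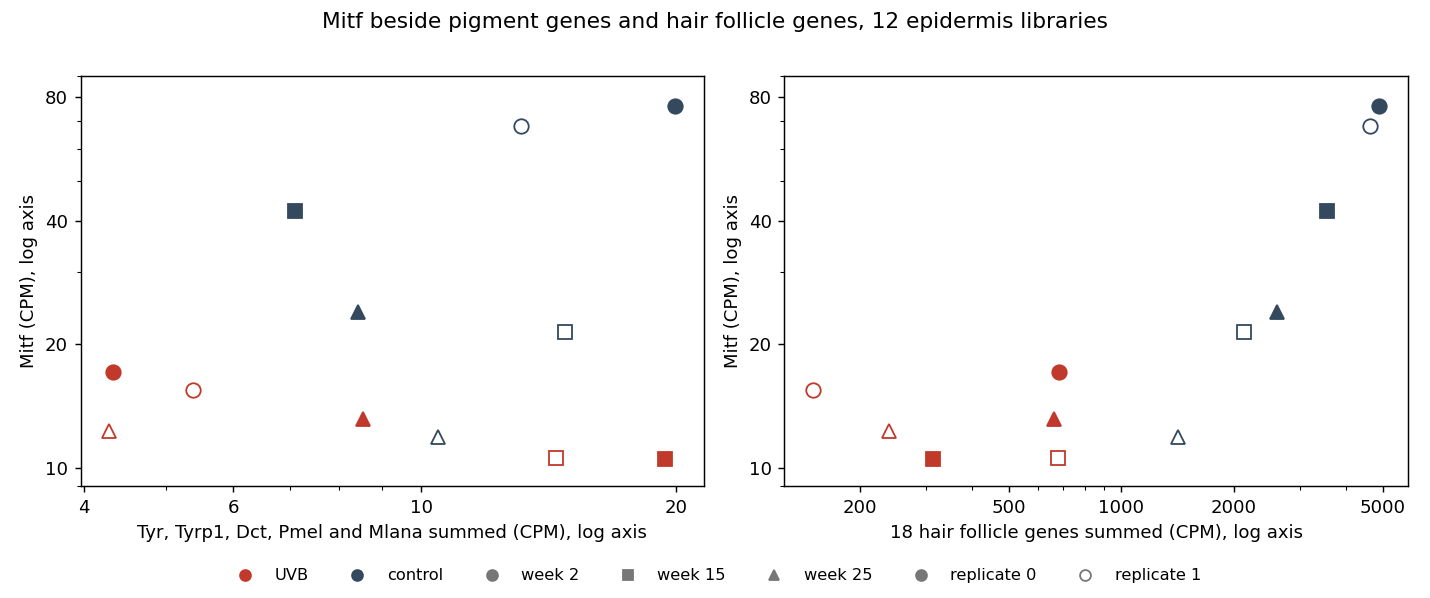
Mitf (vertical axis, CPM, log scale) in each of the 12 epidermis libraries against the sum of the 5 pigment genes (left) and of 18 hair follicle genes (right; horizontal axes, CPM, log scale); red UVB, dark control, marker shape by week, filled replicate 0, open replicate 1. The UVB libraries of week 15 had 14.4 and 19.4 CPM of the pigment genes at the lowest Mitf levels, and the 6 control libraries stood to the right of the 6 UVB libraries in the hair gene sum.

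Mast cell markers also differed, but not all in the same direction. The sum of 12 mast cell genes was 2.33 to 8.75 CPM in UVB epidermis and 7.85 to 90.1 CPM in control epidermis. Of the genes, 3 to 8 were at 0 in UVB libraries and 6 to 9 in control libraries. Mrgprb2, the most abundant, made up nearly all of the sum in controls. At week 2 it averaged 72.3 CPM there, against sums of 58.4 and 90.1 CPM. The lower sum under UVB is therefore mainly that of Mrgprb2 and not of the list. Mrgprb2 averaged 1.78 CPM in UVB and 41.1 CPM in control epidermis (-4.47 ± 0.53 as the mean over weeks, adjusted p = 0.000243). Tpsab1, a mast cell tryptase gene and the only other gene of the list that was tested, went the other way and rose (adjusted p = 0.0159 as the mean over weeks), with 0.174 to 2.32 CPM in UVB epidermis and 0 to 0.380 CPM in control epidermis. It stood at 2.29 and 2.32 CPM in UVB epidermis at week 25 and at 0 in both controls (adjusted p = 0.00952). Cpa3, a defining mast cell protease, had at most 0.357 CPM in UVB epidermis and 0.161 CPM in control epidermis. The part of mast cells in the Mitf and Kit values was not tested. Of the other cell markers tested in epidermis, 3 of 6 macrophage genes, 1 of 9 fibroblast genes and 1 of 4 endothelial genes rose as the mean over weeks, 3 of 9 Schwann cell genes and 2 of 9 keratinocyte genes fell, and 0 of 6 skeletal muscle genes were called, where 14.4% of all genes were higher and 15.1% lower. The sum of 9 keratinocyte genes was 4827 to 5858 CPM in UVB and 5304 to 6223 CPM in control epidermis, against 3081 to 3669 CPM in tumor and whole skin.

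Tfe3 and Tfeb, close relatives of Mitf, passed in no comparison of UVB with control epidermis. A further relative, Tfec, did not pass the count filter in epidermis and was not tested there. Tfe3 averaged 142 CPM in UVB and 152 CPM in control epidermis (-0.12 ± 0.08, adjusted p = 0.244) and Tfeb 17.5 CPM in UVB and 17.0 CPM in control epidermis (0.01 ± 0.18, adjusted p = 0.974). Both encode factors of the MITF family that act on lysosome genes. Of 26 further pigment cell genes, 18 were tested. As the mean over weeks 2 rose, Bace2 (0.70 ± 0.11, adjusted p = 0.000921) and Cd63 (0.80 ± 0.14, adjusted p = 0.00156), and 1 fell, Myo5a (-1.17 ± 0.18, adjusted p = 0.000820). In that comparison 14.4% of all genes were higher and 15.1% lower. Bace2 encodes a protease that cleaves PMEL, CD63 helps to sort it, and myosin Va carries melanosomes; all 3 are made in other cells too. The median of the 18 was -0.08. Gpnmb, which encodes a melanosome and lysosome glycoprotein, had 1.01 CPM in UVB and 14.7 CPM in control epidermis at week 2 (-3.92 ± 0.66, adjusted p = 0.00601). It did not pass at week 15 (-1.39 ± 0.56, adjusted p = 0.187), at week 25 (12.7 CPM in UVB and 9.19 CPM in control epidermis, 0.44 ± 0.51, adjusted p = 0.564) or as the mean over weeks (-1.37 ± 0.60, adjusted p = 0.107), and its effect at week 25 minus that at week 2 was 4.36 ± 0.84 (adjusted p = 0.0172). The joint test of differences between weeks did not pass for Gpnmb (adjusted p = 0.0568). For Lyst, of the same list, the effect at week 25 minus that at week 2 went the other way (-2.78 ± 0.44, adjusted p = 0.0103). Its joint test passed (adjusted p = 0.0343). Lyst was lower at week 25 (-2.26 ± 0.32, adjusted p = 0.00255) and did not pass as the mean over weeks (adjusted p = 0.116).

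Among the 8 tested genes of melanocyte transcription and fate, Snai2 rose (0.90 ± 0.17, adjusted p = 0.00202) and Tfap2b (-0.80 ± 0.16, adjusted p = 0.00325), Lef1 (-1.73 ± 0.56, adjusted p = 0.0362) and Sox6 (-0.79 ± 0.27, adjusted p = 0.0472) fell. Unless a week is named, values here are means over weeks, where 14.4% of all genes were higher and 15.1% lower. Of the paracrine signals, 4 of 9 in the table were tested. Kitl, the ligand of KIT, rose by 2.43 ± 0.37 (adjusted p = 0.000750), with 18.4 CPM in UVB and 3.20 CPM in control epidermis, while Kit itself averaged 0.984 CPM in UVB and 1.76 CPM in control epidermis. Kitl rose at week 2 (3.36 ± 0.62, adjusted p = 0.00751) and week 15 (2.80 ± 0.48, adjusted p = 0.0185) and did not pass at week 25 (1.43 ± 0.48, adjusted p = 0.0559). Edn1, a ligand of EDNRB, fell (-1.17 ± 0.17, adjusted p = 0.000718), and so did Bmp4 (-1.42 ± 0.27, adjusted p = 0.00245). Pomc, the source of the melanocortin that MC1R binds, was at 0 in all 12 epidermis libraries. Among 4 tested receptors outside the 10 genes, Lgr4 fell (-0.96 ± 0.13, adjusted p = 0.000420) and Ednra rose (2.29 ± 0.41, adjusted p = 0.00177).

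At week 25 the 10 genes could also be set against tissue that includes dermis. Sox10 and Ednrb passed the count filter there only through tumor and whole skin, the tissues where they were high, so they are set apart from the 6 genes that also passed it in epidermis. Of these 6, 5 were higher in tumors than in UVB epidermis, in a comparison that called 29.5% of all genes and 16.8% as higher. With no filter 8 of all 10 genes were called, Sox10 and Ednrb among them, where 22.8% of all genes were called. Ednrb had 19.0 and 33.9 CPM in tumors, against 0.763 and 0 CPM in UVB epidermis. It was higher by 5.96 ± 0.91 on the log2 scale (adjusted p = 0.000374), and by a ratio of 64.7 on 378 against 5 counts, with a counting interval of 27.5 to 200. Kit had 13.1 and 21.9 CPM in tumors, against 1.98 and 1.07 CPM in UVB epidermis (3.49 ± 0.61, adjusted p = 0.000885). Dct had 14.0 and 20.3 CPM in tumors, against 1.98 and 0 CPM in UVB epidermis (4.02 ± 0.94, adjusted p = 0.00563). Sox10 had 28 counts in tumors and 2 in UVB epidermis, a ratio of 12.0 with a counting interval of 3.02 to 104 (3.44 ± 0.94, adjusted p = 0.0168). Tyrp1 (3.28 ± 0.95, adjusted p = 0.0186), Pmel (1.41 ± 0.47, adjusted p = 0.0363) and Mitf (1.15 ± 0.37, adjusted p = 0.0293) were higher by less. Mitf had 27.5 and 29.1 CPM in tumors, against 13.1 and 12.3 CPM in UVB epidermis. Mlana did not pass (1.52 ± 1.02). Tyr had 1.44 and 1.10 CPM in tumors and was at 0 in both UVB libraries, at least 5.13-fold higher against a floor of 3 counts over the group. Kit and Ednrb passed in all 21 alternatives. The other calls were lost in 1 to 5 of 21, with fold changes for Mitf of 1.10 to 1.20 and for Pmel of 1.24 to 1.56 in the settings where they were lost. Without week 25 UVB epidermis 1, Tyrp1 was at 2.61 (adjusted p = 0.165), Sox10 at 2.61 (adjusted p = 0.135) and Dct at 3.09 (adjusted p = 0.0503).

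Of the same 6 genes, 3 were higher in control whole skin than in control epidermis, where 55.6% of all genes were called and 31.9% as higher. These were Kit (4.84 ± 0.65, adjusted p = 5.66e-05), Tyrp1 (3.20 ± 0.86, adjusted p = 0.00672) and Dct (2.96 ± 0.83, adjusted p = 0.00826). Sox10 and Ednrb, which again passed the filter only through the tissues where they were high, were also called with no filter, where 5 of all 10 genes and 42.3% of all genes were. Sox10 had 7.32 and 16.4 CPM in whole skin, against 0.169 and 0.462 CPM in epidermis (5.11 ± 0.80, adjusted p = 0.000281). Ednrb had 11.3 and 37.0 CPM in whole skin, against 0.506 and 0.154 CPM in epidermis (6.13 ± 0.94, adjusted p = 0.000148). Mitf had 37.7 and 24.0 CPM in whole skin, against 23.9 and 11.9 CPM in epidermis. The groups did not overlap by a narrow margin, and Mitf did not pass (0.80 ± 0.36, adjusted p = 0.0741), and neither did Pmel or Mlana. The call was lost without week 25 control epidermis 0 for Dct (2.46, adjusted p = 0.0738), and without week 25 control epidermis 1 or whole skin 0 for Tyrp1. Mitf passed without week 25 control epidermis 0 (1.35, adjusted p = 0.0202), whole skin 1 (1.07, adjusted p = 0.0346) or week 15 control epidermis 1 (0.79, adjusted p = 0.0481), and Pmel without whole skin 1 (1.31, adjusted p = 0.0417). Markers of other cells were higher in the same tissues. The sum of 12 mast cell genes was 250 and 432 CPM in tumor and 178 and 353 CPM in whole skin, that of 10 endothelial genes 285 and 419 CPM in tumor and 127 and 271 CPM in whole skin against at most 19.2 CPM in epidermis, and the lists had none of their genes at 0 in these 4 libraries. The part of these cells in the Kit and Ednrb values was not tested.

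Between tumors and whole skin none of 7 tested melanocyte genes passed by edgeR or by DESeq2, no gene of the whole table was called by edgeR (0%), and 1 of the 7 had an unadjusted p under 0.05. That gene was Sox10, with 1.73 and 2.20 CPM in tumors, against 7.32 and 16.4 CPM in whole skin. Its groups did not overlap, with a difference of -2.65 ± 0.58 (unadjusted p = 0.00466, adjusted p = 0.891; adjusted p = 0.0513 by DESeq2). On 28 against 163 counts the ratio was 0.185, with a counting interval of 0.119 to 0.278. The other 6 had differences from -0.98 (Tyrp1) to 0.51 (Pmel). The 2 whole skin libraries differed widely: Dct had 37.2 and 14.8 CPM and Tyrp1 17.2 and 3.56 CPM in replicates 0 and 1, while Kit had 18.1 and 38.8 CPM and Ednrb 11.3 and 37.0 CPM. Mitf and all 5 pigment genes were higher in replicate 0, and Sox10, Kit, Ednrb and Mc1r in replicate 1. Sox10 was called without either whole skin library, at -3.11 without replicate 0 (adjusted p = 2.50e-10) and -1.97 without replicate 1 (adjusted p = 0.000578), with the lone whole skin library assumed to vary like the tumors. Kit was also called without replicate 0 (-1.22), where 19.9% of all genes were called, and Ednrb (1.13), Tyrp1 (-1.68) and Dct (-1.20) without replicate 1, where 36.2% were.

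**Figure D4:**
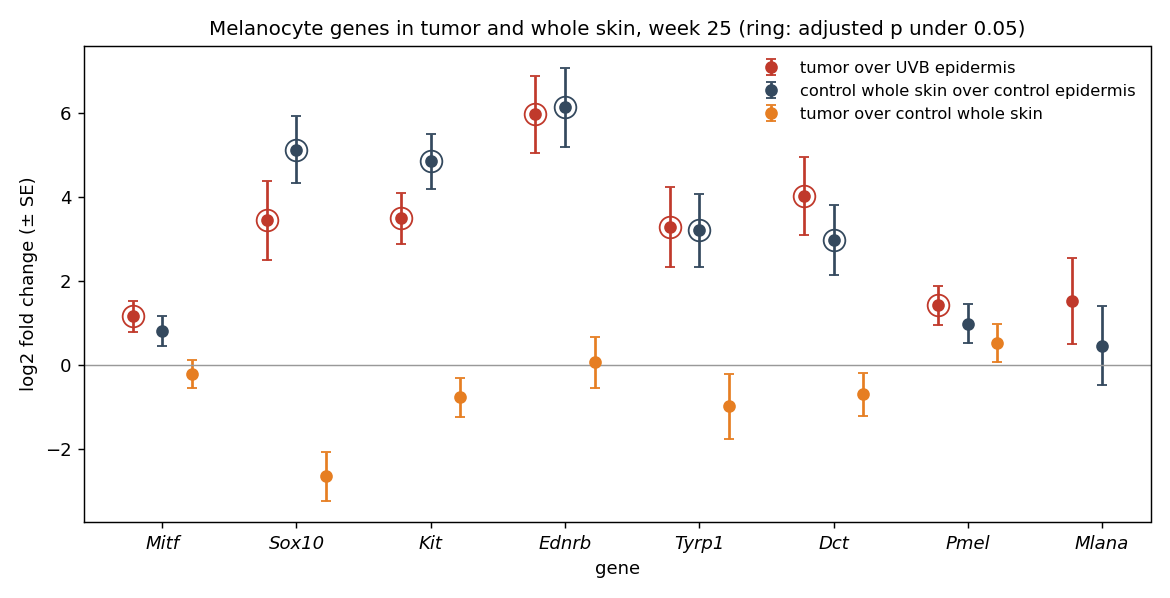
Fitted log2 fold change (vertical axis, with SE) of 8 genes for tumor over UVB epidermis (red), control whole skin over control epidermis (dark) and tumor over control whole skin (orange), all at week 25; rings mark an adjusted p under 0.05, and Sox10 and Ednrb passed the count filter only through tumor and whole skin. In whole skin Sox10, Kit and Ednrb had the highest values against epidermis, from 4.84 to 6.13, and Mitf the lowest ringed value in tumor, 1.15.

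Per kilobase of exon, the order of the genes differed between tissues. In UVB epidermis Mlana (2.57 CPM per kilobase, over 461 exon bases) and Mitf (2.54) stood above Pmel (2.03) and Dct (1.13). In control epidermis Mitf was at 7.85 CPM per kilobase, Pmel at 2.25, Dct at 2.08 and Mlana at 1.48. In tumors Dct was at 7.56 CPM per kilobase, above Ednrb at 6.07, Pmel at 5.64 and Mitf at 5.46, and in whole skin Dct was at 11.5 and Mitf at 5.96. These are levels over all isoforms, on the exon lengths of the deposited table, and the replicates of the tissues overlap for most neighbours in these orders.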

How the data were processed

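The authors deposited raw read counts for each gene of all 16 libraries in a single table, with mm10 coordinates and exon lengths. Per the submitters' processing notes, HISAT2, Picard, featureCounts and DESeq2 were used, with no versions, and the counting followed duplicate removal, per the file headers, which can lower counts of abundant genes. How strand and multiply mapped reads were handled is not stated there. Counts were used as deposited, in R 4.3.3 and edgeR 4.0.16: filterByExpr (minimum count 10, minimum total 15), TMM scaling, quasi-likelihood F tests with a prior count of 0.125, and Benjamini-Hochberg adjustment over all genes tested, with calls at an adjusted p under 0.05. UVB and week comparisons in epidermis used 1 fit of 12 libraries (13478 genes, 6 residual degrees of freedom), the mean over weeks an additive fit of week and UVB (8 degrees of freedom). Tumor against whole skin used its 4 libraries (14661 genes, 2 degrees of freedom), and the comparisons between tissues used all 16 (15126 genes). CPM used the TMM sizes of all 16 libraries. Ratios of summed counts carry exact conditional 95% intervals, which, like the floor of 3 counts, cover counting error only. Correlations used log2 CPM with a prior count of 2. Alternatives were DESeq2 1.42.0, its size factors in edgeR, no filter, a minimum count of 30, a replicate block, other sets of libraries in the fit and the loss of each library. The epidermis fits were tested on simulated data, with changes placed only in genes of higher counts than Kit, Tyrp1 and Mlana. The fits with tumor and whole skin were not simulated. The genes, marker lists and rules for naming genes were chosen with earlier results of these data known. The rules were to name all 10 genes in each comparison, with up to 4 called genes of smallest p and the most abundant gene per list. Not all of these are named above.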

Additional observations from a re-analysis of the deposited data

Results flagged for a closer look

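Dct was noted because its UVB effect had opposite directions at different weeks with no overlap of the libraries. Both UVB libraries were below both controls at week 2 (0 and 1.21 CPM in UVB, 7.79 and 5.92 CPM in control epidermis), above both at week 15 (6.41 and 5.74 CPM in UVB, 2.37 and 5.47 CPM in control epidermis) and below both at week 25 (1.98 and 0 CPM in UVB, 2.02 and 4.62 CPM in control epidermis). The margin was narrow at week 15, where UVB 1 had 37 counts and control 1 had 34. At week 25 it rested on the scaling by library size, since UVB 0 had 13 counts and control 0 had 12. How many of all genes show such a pattern was not counted. The fitted effect at week 15 minus that at week 2 was 4.06 on the log2 scale (SE 1.38, adjusted p = 0.509 with edgeR), and that at week 25 minus week 15 was -2.29, a difference that was not tested on its own. The joint test over the 3 weeks gave an adjusted p of 0.221, so a difference between weeks was not established after adjustment. The counts behind it were 7 in UVB and 55 in control epidermis at week 2, 78 in UVB and 46 in control epidermis at week 15, and 13 in UVB and 42 in control epidermis at week 25. The cause was not tested.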

How the results depend on the processing

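Of the alternatives for all results, 1089 values kept direction and side of the threshold, 47 lost it, 15 gained it and 25 changed sign. The number of melanocyte genes called at week 2 was 3, 4 with no filter (Pmel added), 1 with a minimum count of 30, 1 in a fit of only the 4 libraries compared, and 0 to 3 with 1 library left out. At week 15 it was 1, with 0 in a fit of only 4 libraries, 0 in a fit of all 16 and 0 to 1 with 1 library left out. For week 25 against week 2 in controls it was 1, with 0 in a fit of only 4 libraries and 0 to 1 with 1 left out. For tumor against whole skin it was 0, with 0 to 4 with 1 left out. With Sox10 and Ednrb included, tumor against UVB epidermis had 7, and 2 to 8 with 1 left out, and whole skin against epidermis 5, and 4 to 7 with 1 left out; the mean over weeks had 1 throughout. Whether replicate numbers pair the libraries was checked by correlations of deviations. Between UVB and control epidermis these were -0.103, -0.0329 and 0.227 at weeks 2, 15 and 25. Between tumor and whole skin the correlation was -0.0372. Pairing of tumor with UVB epidermis, or of whole skin with control epidermis, was not checked. With the replicate number as a block, 1 gene was called in tumor against whole skin, Sox10 (-2.57, adjusted p = 0.0134), and Mitf passed in whole skin against epidermis (0.81, adjusted p = 0.0398); at week 2 Dct had an adjusted p of 0.0592. Calls over all genes ranged from 125 to 4377 at week 2 and from 26 to 1463 at week 15. The median r of the pigment genes with Mitf was 0.20, with 0.31 over 16 libraries, 0.023 as Spearman's rho and 0.19 with a prior count of 0.5.

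Mitf relative to Tyrp1 changed sign with a prior count of 0.5 (0.13) and without week 15 (0.19), and Mitf relative to Dct without week 2 (-0.31) or week 25 (-0.54). Without 1 library, the log2 values of uncalled genes that changed sign ran as follows. At week 2, Mlana ran from -0.093 to 2.04. At week 15, Tyrp1 ran from -0.92 to 0.74. At week 25, Mitf ran from -0.95 to 0.071, Pmel from -0.019 to 0.31 and Mlana from -5.08 to 0.035. As the mean over weeks, Pmel ran from -0.43 to 0.072. For week 25 against week 2, Mlana in controls ran from -1.06 to 0.77, and under UVB Tyrp1 ran from -0.56 to 4.72 and Dct from -4.83 to 5.56. For tumor against whole skin, Mitf ran from -0.50 to 0.17, Ednrb from -0.55 to 1.13, Tyrp1 from -1.68 to 0.61 and Dct from -1.20 to 0.14. For whole skin against epidermis, Mlana ran from -0.052 to 1.05. The cause was not tested. Depth limits Tyr, Mc1r, Sox10 and Ednrb in epidermis, at 14 to 37 counts over 12 libraries.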
